A study of Arabidopsis thaliana with 15 samples.

Results

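Root hairs are tubular outgrowths of single epidermal cells, and the 10 genes described here are regulators of their fate and growth in Arabidopsis thaliana. They were listed by locus: RHD6 and GL2 as genes of early fate, the transcription factors RSL2, RSL4, LRL1 and LRL3, and SCN1, CSLD3, HA7 and COBL9 (also called SHV2) as parts of the growth machinery. Of the 10 loci, 9 had a row among the 14391 genes of the deposited count table, and 8 were among the 9891 genes that passed the filter on low counts. RSL4 (AT1G27740) has no row in the table and was not analysed here. RSL2 (AT4G33880) was too low for the filter and is given from its counts. After 3 h of Rose Bengal, 3 of 6 tested growth genes were called lower than in water, against 16.6% of all genes. After 2 h of Rose Bengal with H2O2, 3 were lower (12.6% of all genes), and after 2 h without it 1 was (12.2%). LRL3 fell furthest in each. COBL9, 1 of the 3 in both cases, passed the filter only through water and 1 h of Rose Bengal. LRL1 rose after 2 h and 3 h of Rose Bengal, and CSLD3 and SCN1 did not pass the test. Of the early fate genes, GL2 was lower after 3 h of Rose Bengal and after 2 h of Rose Bengal with H2O2, while RHD6 did not pass. Both GL2 calls were lost when certain single libraries were left out.

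In the root epidermis, a cell becomes a hair cell or a non-hair cell by its position. GL2, a homeodomain protein, acts in the non-hair cells and represses the hair programme there, while the basic helix-loop-helix factor RHD6 starts a hair in the hair cells. RHD6 acts upstream of RSL2 and RSL4, which drive elongation, and the LRL factors, relatives of a root hair regulator of Lotus japonicus, also act in hair growth. Growth itself is confined to the tip and needs polarity, new wall and a proton gradient.

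All groups were roots of wild-type (WT) Columbia-0 seedlings, 7 days old, raised at 21 °C with 16 h of light a day, with 30 to 50 seedlings pooled in each replicate. Rose Bengal (RB) is a dye that makes singlet oxygen from oxygen in light. The 5 groups, each with 3 replicates, were water, 3 groups in 10 µM RB that lasted 1, 2 or 3 h, and RBH, which is 10 µM RB with 5 mM H2O2 for 2 h. The RBH labels write the dye as MRB, and the sources used here do not explain the M. Water is labelled as lasting 1 h while its titles carry a 0, so against water at 2 h or 3 h the dye and the time in solution cannot be told apart. All 4 comparisons against water share the same 3 water libraries. Whole roots were used, so fewer hair cells and less RNA per hair cell cannot be told apart.

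Library totals ran from 897728 to 6230975 counts. Levels are in CPM, a library's counts set against its scaled total, and since MARS-seq counts the 3′ ends of transcripts they are compared only within a gene. The library of RB 1 h lettered b and that of RB 2 h lettered a stood apart from the rest on principal component 3 (-30.23 and -46.84, against -12.09 to 18.97), and the tests of the 8 tested members and of the listed genes were also run without them. Endodermis markers, a check of root identity, were 7 of 7 in the table with none at 0 in a group. They summed to 1077 to 1126 CPM per library in water, 976 to 1367 CPM in RBH, and 1103 to 1145, 713 to 911 and 525 to 686 CPM at 1, 2 and 3 h of RB, and their members CASP1 (log2 fold change -1.30, edgeR adjusted p = 4.19e-06) and PER64 (-1.68, adjusted p = 4.15e-06) were called lower in RB 3 h vs water. Shoot green tissue markers, 9 of 9 in the table and none at 0 in any group, summed to 299 to 439 CPM in water and 268 to 703 CPM in RBH, and at 1, 2 and 3 h of RB to 204 to 262, 223 to 415 and 154 to 166 CPM. The part of either marker list in the results below was not tested.

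A gene was called where the Benjamini-Hochberg adjusted p of edgeR's quasi-likelihood test, over all 9891 genes, was under 0.05. In RB 1 h vs water, 0 of the 8 tested members were called, against 5.39% of all genes; 2 had an unadjusted p under 0.05, and DESeq2 called 0. In RB 2 h vs water 2 of 8 were called (24.8% of all genes), LRL1 higher and LRL3 lower. In RB 3 h vs water 5 of 8 were called (32.8% of all genes), LRL1 higher and GL2, LRL3, HA7 and COBL9 lower. In RBH vs water 4 of 8 were called (27.0% of all genes), and GL2, LRL3, HA7 and COBL9 were all lower. Without the libraries that stood apart, the count in RB 2 h vs water was 4, with HA7 lower and CSLD3 higher added, and the count in RB 3 h vs water was 6, with CSLD3 higher added. Of all genes, 12.6%, 16.2% and 14.4% were called higher and 12.2%, 16.6% and 12.6% lower in RB 2 h, RB 3 h and RBH vs water.

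**Figure D1:**
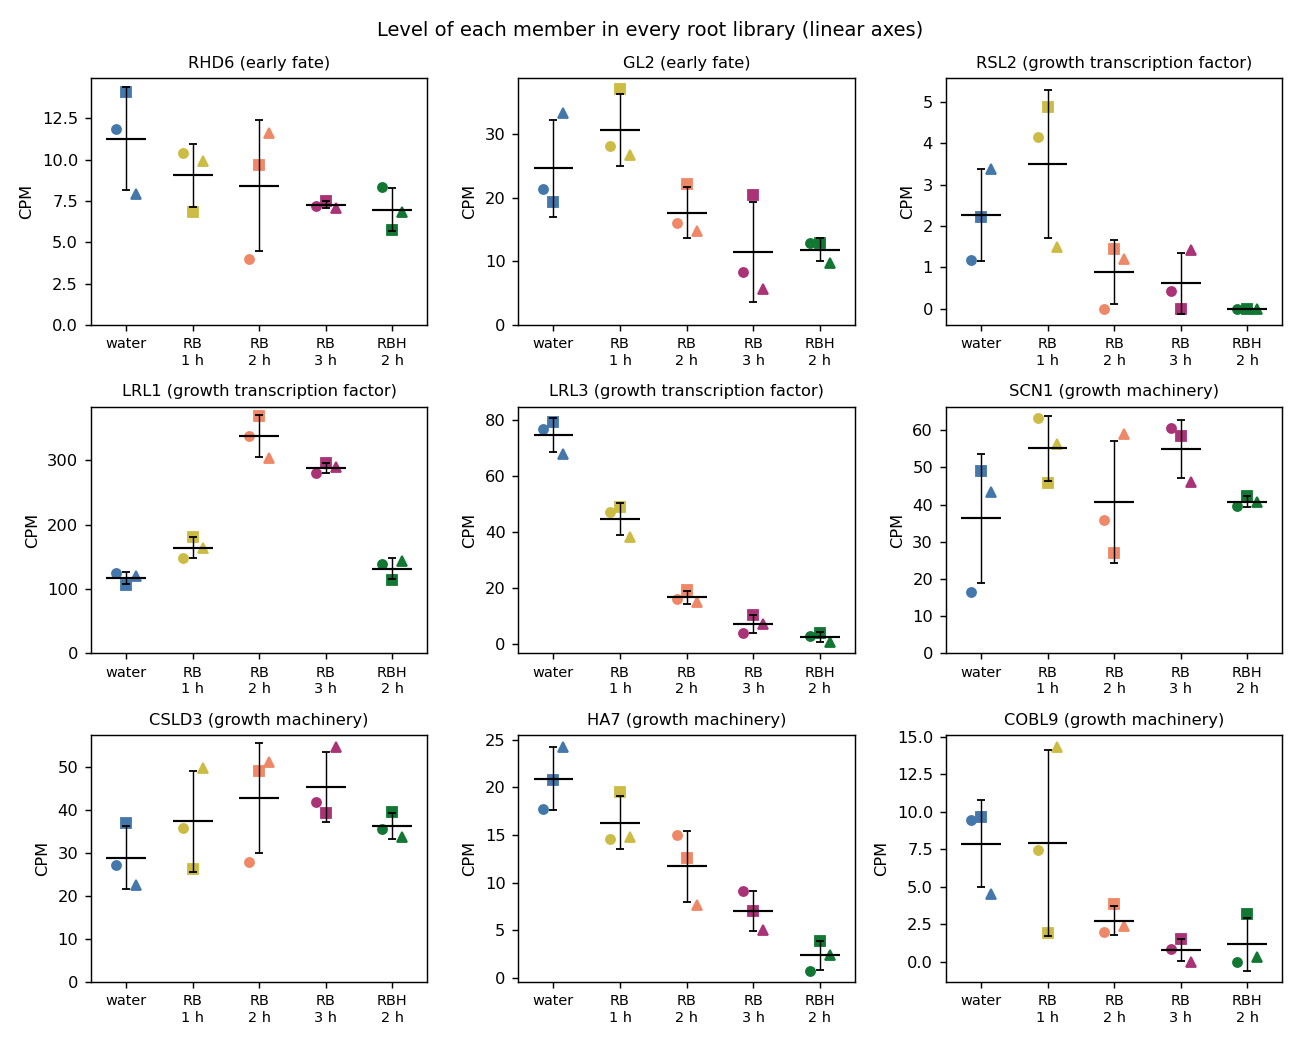
Level in CPM (linear axes) of the 9 members with a row, by group, with 1 point per library (circle, square and triangle for replicates a, b and c), the group mean as a horizontal line and the SD as an error bar. LRL1 was highest in RB 2 h (304 to 369.8 CPM), while LRL3 went from 67.8 to 79.3 CPM in water to at most 3.84 CPM in RBH.

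Among the early fate genes, RHD6 (AT1G66470) was weakly detected, with 43 to 62 counts in each group of 3 libraries. Its level was 11.8, 14.1 and 7.91 CPM in water replicates a, b and c, 10.4, 6.83 and 9.89 in RB 1 h, and 4.0, 9.66 and 11.6 in RB 2 h. At 3 h of RB it was 7.18, 7.49 and 7.10 CPM, and in RBH 8.36, 5.76 and 6.81 CPM. The RB 3 h libraries lay below all 3 water libraries, whereas one RBH library, a, lay above water replicate c. The log2 fold change against water was -0.24 (SE 0.37), -0.29 (SE 0.37) and -0.61 (SE 0.37) at 1, 2 and 3 h of RB, and -0.68 (SE 0.38) in RBH. None passed the test (edgeR adjusted p = 0.766, 0.616, 0.222 and 0.199), but the 95% intervals at 3 h (-1.37 to 0.16) and in RBH (-1.45 to 0.10) include falls of more than 2-fold, so the data do not exclude a fall of that size.

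GL2 (AT1G79840), the repressor of the hair programme in non-hair cells, stood at 21.3, 19.3 and 33.3 CPM in water and at 28.2, 37.1 and 26.7 CPM in RB 1 h. It was 16.0, 22.2 and 14.8 CPM in RB 2 h, 8.24, 20.5 and 5.68 CPM in RB 3 h and 12.9, 12.8 and 9.78 CPM in RBH. All 3 RBH libraries lay below every water library, but RB 3 h replicate b lay above water replicate b. GL2 fell in RB 3 h vs water (log2 fold change -1.14, SE 0.36, edgeR adjusted p = 0.0164) and in RBH vs water (-1.13, SE 0.36, adjusted p = 0.0207). It was not called at 1 h (0.26, SE 0.33, adjusted p = 0.715) or 2 h of RB (-0.50, SE 0.35, adjusted p = 0.326). The RB 3 h call was lost without water replicate c (-0.82, edgeR adjusted p = 0.158), without RB 3 h replicate a (-0.87, adjusted p = 0.119) and without RB 3 h replicate c (-0.88, adjusted p = 0.0800), and without RB 3 h replicate b the value was -1.76. The RBH call was lost without water replicate c (-0.81, adjusted p = 0.187) and without RBH replicate c (-0.98, adjusted p = 0.101). GL2 overlaps AT1G09927 on the same strand, a locus not analysed here.

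LRL1 (AT2G24260), a basic helix-loop-helix factor of root hair growth, was the only member called higher against water in the fit of all 5 groups with TMM scaling and all 15 libraries. Its level was 124, 106 and 120.4 CPM in water, 148, 181 and 164 CPM in RB 1 h, 338, 369.8 and 304 CPM in RB 2 h, 279.7, 295 and 290.4 CPM in RB 3 h, and 138, 113 and 143 CPM in RBH. The RB 2 h and RB 3 h libraries lay above all others, RB 1 h lay between them and RBH, and RBH overlapped water. LRL1 rose 2.89-fold in RB 2 h vs water (log2 fold change 1.53, SE 0.17, edgeR adjusted p = 3.04e-07) and 2.47-fold in RB 3 h vs water (1.30, SE 0.17, adjusted p = 1.96e-06). At 1 h of RB it did not pass (0.49, SE 0.17, adjusted p = 0.101), though with plain library totals it did (0.67, adjusted p = 0.0104). In RBH vs water the difference was 0.18 (95% interval -0.17 to 0.53, adjusted p = 0.484).

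LRL3 (AT5G58010), of the same family, had the lowest log2 fold change of the tested members in all 4 comparisons with water. It was at 76.9, 79.3 and 67.8 CPM in water, 47.2, 48.8 and 38.1 CPM in RB 1 h and 16.0, 19.3 and 14.8 CPM in RB 2 h. After 3 h of RB it was at 3.80, 10.5 and 7.10 CPM, and in RBH at 3.04, 3.84 and 0.699 CPM, which is 4, 6 and 4 counts. The order was water, RB 1 h, RB 2 h, RB 3 h and RBH with no overlap between neighbours except that the lowest RB 3 h library lay within the RBH range. LRL3 fell in RB 2 h vs water (log2 fold change -2.15, SE 0.31, edgeR adjusted p = 1.33e-05), in RB 3 h vs water (-3.49, SE 0.34, adjusted p = 2.53e-08) and in RBH vs water (-5.33, SE 0.42, adjusted p = 5.37e-10), where the fitted level was 0.0249 times that of water. At 1 h of RB all 3 libraries lay below water without passing the test (-0.74, SE 0.28, adjusted p = 0.141).

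The pair therefore moved in opposite directions within the same libraries. The ratio of LRL1 to LRL3 counts was 1.62, 1.34 and 1.78 in the water libraries and 3.14, 3.70 and 4.30 in RB 1 h. It was 21.1, 19.2 and 20.5 in RB 2 h, 73.6, 28.1 and 40.9 in RB 3 h, and 45.5, 29.5 and 205 in RBH. The ratio needs no scaling between libraries, but it compares 3′ counts of 2 genes and is a description with no test. In RBH it was high with LRL1 near its water level, whereas in RB 2 h and RB 3 h both genes had moved.

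**Figure D2:**
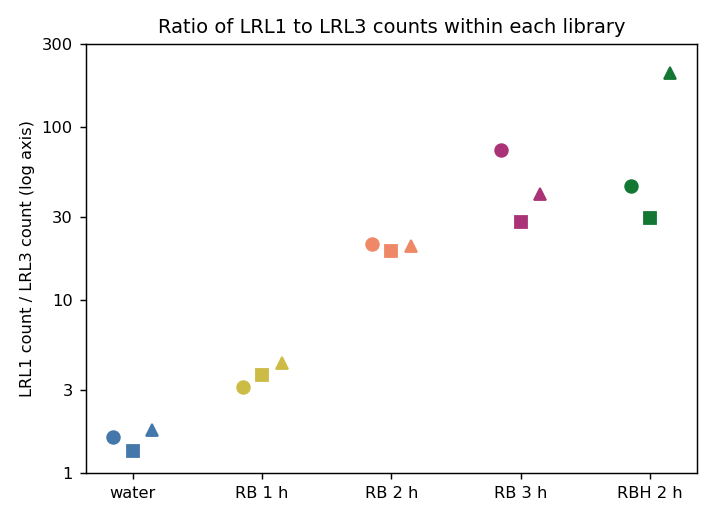
Ratio of LRL1 counts to LRL3 counts within each library (log axis) for the 5 groups, with circle, square and triangle for replicates a, b and c. Each RB 2 h library was between 19.2 and 21.1, above every water (1.34 to 1.78) and RB 1 h (3.14 to 4.30) library, and RB 3 h and RBH reached 28.1 to 205.

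RSL2, which promotes hair elongation downstream of RHD6, had 10 counts over the 3 water libraries and 0 in RBH, and 22, 6 and 4 counts at 1, 2 and 3 h of RB. Its level was 1.18, 2.22 and 3.39 CPM in water, 4.16, 4.88 and 1.48 CPM in RB 1 h, 0, 1.45 and 1.2 CPM in RB 2 h, and 0.423, 0 and 1.42 CPM in RB 3 h. RBH was the deepest-sequenced group, with up to 6230975 counts in a library, and held no RSL2 count, which makes RSL2, with 3 counts in the group as the floor and the water counts taken as measured, at least 7.23-fold lower than in water. With the counting error of both groups, the 95% exact interval of the ratio to water ran from 0 to 0.206. In an edgeR fit with no filter on low counts, a choice made after seeing the table, RSL2 was called in RBH vs water (adjusted p = 0.00331) and not in RB 1 h, RB 2 h or RB 3 h vs water (adjusted p = 0.810, 0.429 and 0.105). DESeq2 gave an adjusted p of 0.00897 in RBH vs water.

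HA7 (AT3G60330), a plasma membrane proton pump of hair-forming cells, was the machinery gene with the lowest adjusted p in RB 3 h and RBH vs water. Its level was 17.7, 20.7 and 24.3 CPM in water, 14.5, 19.5 and 14.8 CPM in RB 1 h, 15, 12.6 and 7.62 CPM in RB 2 h, 9.08, 6.99 and 4.97 CPM in RB 3 h and 0.760, 3.84 and 2.44 CPM in RBH. All RB 2 h, RB 3 h and RBH libraries lay below all water libraries, and RBH lay below every library of the other groups. HA7 fell in RB 3 h vs water (log2 fold change -1.51, SE 0.34, edgeR adjusted p = 0.00151) and in RBH vs water (-3.10, SE 0.40, adjusted p = 2.00e-06). In RB 2 h vs water it missed the threshold (-0.91, SE 0.34, adjusted p = 0.0552), and passed it without RB 2 h replicate a (-1.08, adjusted p = 0.0347). At 1 h it was -0.41 (SE 0.33, adjusted p = 0.524). HA7 overlaps AT3G60328 on the opposite strand and AT3G00950 on the same strand, loci not analysed here. The sources used here do not say whether counting used the strand, or how reads of overlapping loci were assigned.

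COBL9 (AT5G49270), a COBRA-like protein anchored at the cell surface and needed for tip growth, was low. It was at 9.47, 9.63 and 4.52 CPM in water and at 7.42, 1.95 and 14.3 CPM in RB 1 h, where it spread widely. In RB 2 h it was at 2.00, 3.86 and 2.41 CPM, in RB 3 h at 0.845, 1.5 and 0 CPM, and in RBH at 0, 3.20 and 0.349 CPM. The RB 2 h, RB 3 h and RBH libraries all lay below the water libraries. Only water and RB 1 h carried COBL9 past the filter on low counts, so a call other than lower in the later groups was unlikely from the start. COBL9 fell in RB 3 h vs water (log2 fold change -3.07, SE 0.81, edgeR adjusted p = 0.00509) and in RBH vs water (-2.99, SE 0.82, adjusted p = 0.00799), from 29 counts over the group in water to 7 in each. In RB 2 h vs water the value was -1.40 (SE 0.71, adjusted p = 0.167) and at 1 h 0.15 (SE 0.62, adjusted p = 0.923). The RBH call was lost without RBH replicate c (-2.11, adjusted p = 0.0867), and without RBH replicate b the value was -4.51 (adjusted p = 0.00127).

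CSLD3 (AT3G03050), a cellulose synthase-like enzyme of the hair tip wall, went the other way in its fitted values without being called. It was at 27.2, 37.0 and 22.6 CPM in water, 35.9, 26.4 and 50.0 CPM in RB 1 h, 28.0, 49.2 and 51.3 CPM in RB 2 h, 42.0, 39.5 and 54.7 CPM in RB 3 h and 35.7, 39.7 and 33.7 CPM in RBH. All 3 RB 3 h libraries lay above water, and the other groups overlapped it. The log2 fold change against water was 0.40 (SE 0.27, edgeR adjusted p = 0.445), 0.61 (SE 0.27, adjusted p = 0.112) and 0.64 (SE 0.27, adjusted p = 0.0724) at 1, 2 and 3 h of RB, and 0.33 (SE 0.27, adjusted p = 0.420) in RBH. Without RB 2 h replicate a CSLD3 was called in RB 2 h vs water (0.81, adjusted p = 0.0275). Without both libraries that stood apart it was called in RB 2 h (0.80, adjusted p = 0.0171) and in RB 3 h vs water (0.64, adjusted p = 0.0297), and without water replicate b in RB 3 h vs water (0.90, adjusted p = 0.0387). With all libraries, it was also called higher in RB 3 h vs water when only these groups were fitted (0.70, adjusted p = 0.0195) and with plain library totals (0.81, adjusted p = 0.0379).

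SCN1 (AT3G07880), which limits each hair cell to a single site of outgrowth, was at 16.6, 48.9 and 43.5 CPM in water and 63.2, 45.9 and 56.4 CPM in RB 1 h. It was at 36.0, 27.0 and 59.0 CPM in RB 2 h, 60.6, 58.4 and 46.2 CPM in RB 3 h and 39.5, 42.3 and 40.7 CPM in RBH. Water replicate a was the lowest of the 15 libraries, and every treated group overlapped the range of water. Against water the log2 fold change was 0.57, 0.13 and 0.56 at 1, 2 and 3 h of RB and 0.11 in RBH (SE 0.29 to 0.30), and none passed (edgeR adjusted p = 0.289, 0.801, 0.148 and 0.821). The 95% interval in RBH vs water ran from -0.50 to 0.73.

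**Figure D3:**
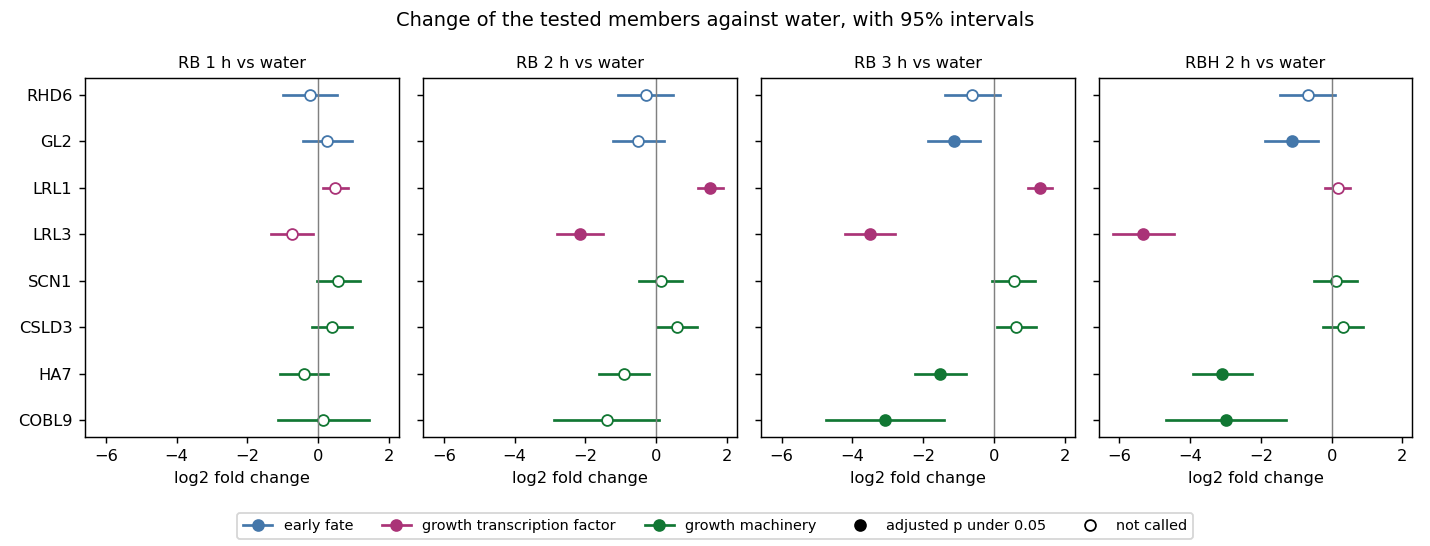
Log2 fold change against water with its 95% interval for the 8 tested members in the 4 comparisons, coloured by role, with filled points called at an adjusted p under 0.05. LRL3 went from -0.74 in RB 1 h to -5.33 in RBH, LRL1 lay at 1.53 in RB 2 h and 0.18 in RBH, and SCN1 and CSLD3 stayed above 0 without a call.

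Set against the division into early fate and later growth genes, both roles held called and uncalled genes. In RB 3 h vs water, where 32.8% of all genes were called, 1 of 2 early fate genes and 4 of 6 tested growth genes were called, 3 of the growth genes lower and LRL1 higher. In RBH vs water (27.0% of all genes), 1 of 2 early fate genes and 3 of 6 growth genes were called, all lower. In RB 2 h vs water (24.8% of all genes), 0 of 2 early fate genes and 2 of 6 growth genes were called. Of all genes, 16.6% and 12.6% were called lower in RB 3 h and RBH vs water. COBL9, 1 of the 3 lower growth genes in both, passed the filter on low counts only through water and RB 1 h. Whether the roles differ was not tested.

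Between adjacent times of RB, LRL1 and LRL3 were the members called in RB 2 h vs RB 1 h, 2 of 8 against 9.79% of all genes. LRL1 was higher at 2 h (log2 fold change 1.04, SE 0.17, edgeR adjusted p = 1.21e-04) and LRL3 lower (-1.41, SE 0.31, adjusted p = 0.00397). COBL9 (-1.54, SE 0.67, adjusted p = 0.166) and GL2 (-0.76, SE 0.34, adjusted p = 0.173) did not pass. In RB 3 h vs RB 2 h, 0 of 8 members were called by edgeR, against 0.222% of all genes, and 1, LRL3, had an unadjusted p under 0.05. LRL3 was -1.34 (SE 0.37, adjusted p = 0.121) there, and it was the 1 member that DESeq2 called (adjusted p = 0.0482).

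RBH vs RB 2 h compares groups of the same labelled time, with and without H2O2. Their labels also differ in the dye, MRB against RB, so the added H2O2 and any difference in dye cannot be told apart. In it, 3 of 8 members were called, all lower in RBH, against 16.8% of all genes called and 6.97% called lower. LRL1 was lower in RBH (log2 fold change -1.35, SE 0.17, edgeR adjusted p = 5.18e-06), at 132 ± 16.1 CPM (SD, n = 3) against 337 ± 32.7 CPM. LRL3 was lower (-3.18, SE 0.46, adjusted p = 3.22e-05), at 2.53 ± 1.63 against 16.7 ± 2.32 CPM, and HA7 too (-2.18, SE 0.42, adjusted p = 8.02e-04), at 2.35 ± 1.54 against 11.7 ± 3.75 CPM. For all 3 genes the ranges of the libraries did not overlap, and the same held for GL2, which was not called. The share of all genes with ranges apart was not computed. RHD6 (-0.38, 95% interval -1.14 to 0.37), GL2 (-0.63, -1.38 to 0.11), SCN1 (-0.01, -0.61 to 0.58), CSLD3 (-0.28, -0.81 to 0.25) and COBL9 (-1.59, -3.43 to 0.26) were not called. Leaving out each library in turn, COBL9 ran from -3.12 to -0.77, and it was called without RBH replicate b (-3.12, adjusted p = 0.0487). RSL2 had 0 counts in RBH against 6 in RB 2 h, with a 95% exact counting interval of the ratio from 0 to 0.549, and was not called in the edgeR fit with no filter (adjusted p = 0.0513).

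Other root hair genes were taken by list. In RB 1 h vs water none of the 30 tested genes of the 5 lists was called by edgeR or DESeq2, where edgeR called 5.39% of all genes. Of the 30, 2, both of the tip growth list, had an unadjusted p under 0.05. Of 12 epidermal patterning genes 8 were in the table and 5 were tested, and edgeR and DESeq2 called 0 of them in any of the 7 comparisons, with 2 at an unadjusted p under 0.05 in RB 3 h vs water and 0 elsewhere. Of all genes, edgeR called 5.39%, 24.8%, 32.8% and 27.0% in RB 1 h, RB 2 h, RB 3 h and RBH vs water. The shares were 16.8%, 9.79% and 0.222% in RBH vs RB 2 h, RB 2 h vs RB 1 h and RB 3 h vs RB 2 h. Whether 0 of 5 genes falls below these shares was not tested. CPC (AT2G46410), a small MYB-like protein that moves into hair cells and blocks the non-hair fate there, was at 107 ± 24.2 CPM (SD, n = 3) in water. Its lowest group mean was 79.7 ± 19.0 CPM, in RB 1 h (log2 fold change -0.44, edgeR adjusted p = 0.294). CPC was at 103 ± 23.4, 113 ± 13.0 and 87.6 ± 17.8 CPM in RB 2 h, RB 3 h and RBH. TTG1 (AT5G24520), a WD40 protein of the complex that switches on GL2, was at 32.7 ± 5.23 CPM in water and 53.1 ± 8.65 CPM in RB 3 h. Without the libraries that stood apart, TTG1 was called higher in RB 2 h (log2 fold change 0.82, edgeR adjusted p = 0.0137) and RB 3 h vs water (0.71, adjusted p = 0.0157) and lower in RBH vs RB 2 h (-0.66, adjusted p = 0.0411). SCM (AT1G11130), a receptor-like kinase that reads cell position, was at 24.0 ± 2.94 CPM in water and 16.4 ± 3.74 CPM in RB 2 h (-0.54, adjusted p = 0.165), while JKD (0.29, adjusted p = 0.812) and RHL1 (-0.20, adjusted p = 0.810) also missed the threshold in RB 2 h vs water.

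Of 7 other root hair transcription factors, 5 were in the table and 4 tested, and none was called in RB 2 h or RB 3 h vs water by edgeR or DESeq2 (1 and 0 at an unadjusted p under 0.05). Of all genes, edgeR called 24.8% and 32.8% there, and whether 0 of 4 falls below these shares was not tested. LRL2 (AT4G30980), the remaining LRL factor, was at 37.0 ± 9.39 CPM (SD, n = 3) in water, 25.8 ± 14.6 CPM in RB 2 h and 24.6 ± 7.28 CPM in RBH (log2 fold change -0.49 in RB 2 h vs water, SE 0.33, edgeR adjusted p = 0.309), with no call against water. GTL1 (AT1G33240), a trihelix factor that restrains hair growth, was lower in RBH, at 8.82 ± 0.389 CPM against 16.7 ± 5.12 in water (-0.98, SE 0.34, adjusted p = 0.0311) and 18.4 ± 7.93 in RB 2 h (-1.09, SE 0.32, adjusted p = 0.0213). DESeq2 did not call GTL1 against water. ZFP5 (AT1G10480), a zinc finger protein that promotes hair formation, was higher in RBH than in RB 2 h at the threshold (1.63, SE 0.57, adjusted p = 0.050), and not without the libraries that stood apart (1.29, adjusted p = 0.0780). AT1G76880, a trihelix gene related to GTL1, was at 23.0 ± 3.47 CPM in water and 27.2 ± 8.31 in RB 2 h (0.23, adjusted p = 0.595).

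The tip growth machinery list had 23 genes, with 20 in the table and 11 tested. Against water, 3 of these 11 fell at 2 h of RB, 4 at 3 h and 3 in RBH, where 12.2%, 16.6% and 12.6% of all genes were called lower. None of the 11 was called higher, against 12.6%, 16.2% and 14.4% of all genes. Below the filter, OXI1 (AT3G25250) had 0 counts in water, 7, 13 and 35 at 1, 2 and 3 h of RB, and 9 in RBH. The 9 genes below the filter together were at 19.0 ± 1.54 CPM (SD, n = 3) in water and 16.0 ± 4.93 in RB 3 h. All 20 genes summed to 501 to 642 CPM per library in water and 466 to 620 CPM in RB 3 h. DESeq2, run without the filter on low counts, called 3, 6 and 4 genes of the list in either direction. The list's median log2 fold change was 0.04, -0.17 and -0.29, against 0.04, 0.01 and 0.04 over all tested genes. LRX1 (AT1G12040), a leucine-rich repeat extensin of the hair wall, fell from 17.0 ± 2.57 CPM (SD, n = 3) in water to 2.48 ± 2.06 in RB 2 h (log2 fold change -2.66, SE 0.64, edgeR adjusted p = 0.00376), and was at 1.33 ± 0.236 CPM in RB 3 h and 0.854 ± 1.48 CPM in RBH. LRX1 passed the filter on low counts only through water and RB 1 h. Its relative LRX2 (AT1G62440) fell from 26.3 ± 7.94 to 10.8 ± 6.20 CPM in RB 2 h (-1.22, adjusted p = 0.0201), a call lost without the libraries that stood apart (-1.10, adjusted p = 0.0524). SHV3 (AT4G26690), a surface protein needed for hair integrity, fell from 48.5 ± 6.18 to 27.7 ± 8.45 CPM in RB 2 h (-0.85, adjusted p = 0.0133), and in RBH was at 39.2 ± 7.77 CPM with no call. RHD4 (AT3G51460), a phosphoinositide phosphatase of the growing tip, was lower in RB 3 h vs water (-0.57, adjusted p = 0.0209), and RHD3 (AT3G13870), a GTPase that shapes the endoplasmic reticulum, in RBH vs water (-1.49, adjusted p = 0.00103). FER (AT3G51550), a receptor-like kinase, had the list's highest value in RB 3 h vs water (1.00, SE 0.39, adjusted p = 0.0566) without passing, at 79.8 ± 14.0 CPM against 38.1 ± 23.7 in water.

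Root hair specific (RHS) genes, a set named for expression in hair cells, had 18 listed, 12 in the table and 2 tested, so the list is given by its summed level. The 12 genes summed to 36.2 to 56.3 CPM per library in water and 43.0 to 54.9 CPM in RB 1 h. Later they summed to 12.6 to 14.4 CPM at 2 h of RB, 6.39 to 9.49 CPM at 3 h and 7.33 to 15.4 CPM in RBH, with no overlap between these and the first 2 groups. RHS19 (AT5G67400), a peroxidase, fell from 16.0 ± 5.42 CPM (SD, n = 3) in water to 1.35 ± 0.314 CPM in RB 2 h (log2 fold change -3.46, SE 0.56, edgeR adjusted p = 5.13e-05) and 0.378 ± 0.334 CPM in RB 3 h. RHS17 (AT4G38390) fell from 6.74 ± 1.97 to 1.38 ± 0.490 CPM in RB 2 h (-2.14, SE 0.73, adjusted p = 0.0341), a call lost without the libraries that stood apart (-2.04, adjusted p = 0.0723). Both genes were also lower in RB 3 h and in RBH vs water. RHS19 and RHS17 passed the filter on low counts only through water and RB 1 h. A call other than lower in the later groups was therefore unlikely from the start.

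**Figure D4:**
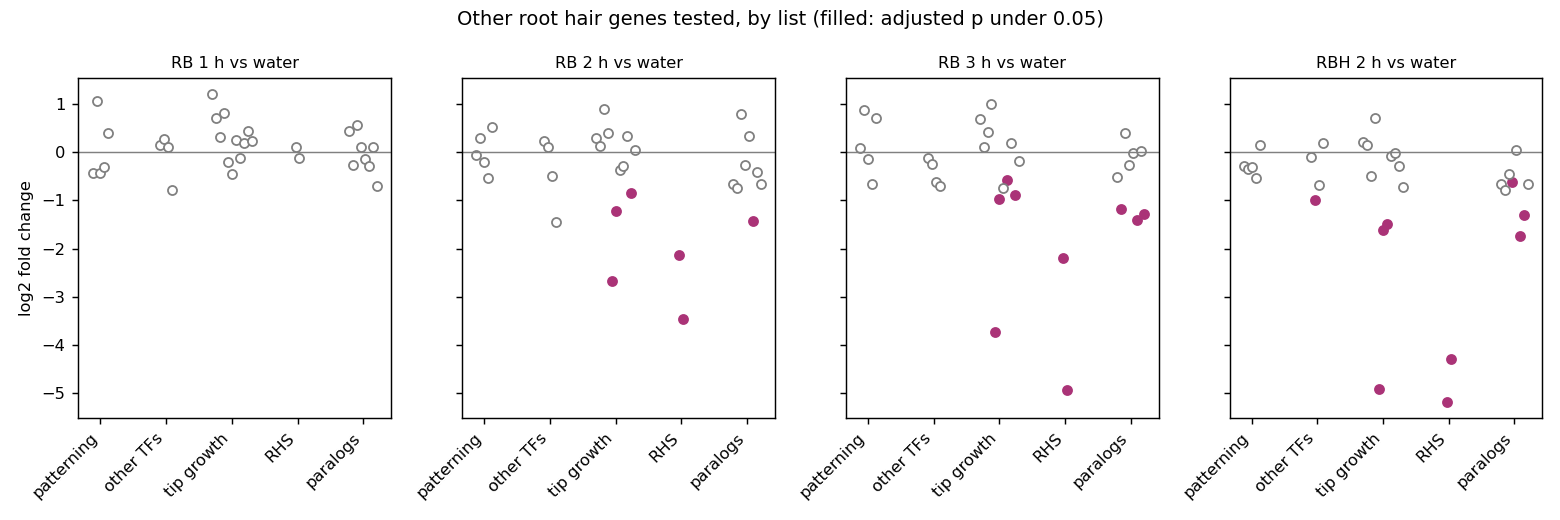
Log2 fold change against water of the 30 tested genes of the other root hair lists, 1 point per gene, filled where the adjusted p was under 0.05. No filled point lies above 0 and none appears in RB 1 h, in patterning, or, under RB, among the other transcription factors; the lowest points are LRX1, RHS17 and RHS19.

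Near relatives of the growth members were looked at because reads of close copies may be split or shared in counting. Of 26 listed, 15 were in the table and 8 tested, and 1, 3 and 3 fell in RB 2 h, RB 3 h and RBH vs water, where 12.2%, 16.6% and 12.6% of all genes were called lower. In RB 2 h, 1 of 8 is near the share of all genes. HA2 (AT4G30190), a main proton pump of roots, fell from 114 ± 17.5 CPM (SD, n = 3) to 41.1 ± 14.9 CPM in RB 2 h (log2 fold change -1.43, SE 0.28, edgeR adjusted p = 5.91e-04), and was at 42.7 ± 6.61 CPM in RB 3 h and 35.5 ± 12.5 CPM in RBH. HA2 was not called in RBH vs RB 2 h (-0.30, SE 0.29, adjusted p = 0.527), a comparison in which HA7 was lower. CSLD2 (AT5G16910), which overlaps CSLD3 in function, was at 17.9 ± 4.65 CPM in water, 29.7 ± 8.83 in RB 2 h (0.78, SE 0.30, adjusted p = 0.0636, and 0.96 with adjusted p = 0.0163 without the libraries that stood apart) and 12.6 ± 1.93 in RBH, and was lower in RBH than in RB 2 h (-1.23, SE 0.30, adjusted p = 0.00514). COBL7 (-0.74, adjusted p = 0.0765) and COB (-0.65, adjusted p = 0.104), relatives of COBL9, did not pass in RB 2 h vs water.

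For each tested member, the 2 genes whose centred log2 CPM lay closest to it over the 15 libraries were found among 5063 genes with a mean of at least 20 CPM. The measure is the root mean square (RMS) difference and is a description. LRL3 lay closest to AT5G14330 (RMS difference 0.50) and AT5G17820 (0.52), which went from 667 ± 46.7 and 609 ± 5.58 CPM (SD, n = 3) in water to 36.3 ± 15.5 and 60.1 ± 21.7 CPM in RBH. LRL1 lay closest to AT5G16110 (0.24) and IAA16 (0.26), an auxin-regulated repressor that was at 184 ± 16.6 CPM in water, 369 ± 36.8 in RB 2 h and 213 ± 8.31 in RBH. Closest to GL2 were AT2G28200 (0.32) and SIM (0.37), an inhibitor of cell division. RHD6 was nearest to P5CR (0.20) and ACYB-2 (0.21), HA7 to TGA9 (0.46) and AT3G53235 (0.49), and COBL9 to AT4G26010 (0.65) and the wall protein gene EXT4 (0.67). SCN1 was nearest to AT1G19110 (0.20) and BPC2 (0.25), and CSLD3 to AT3G19910 (0.17) and AT3G07270 (0.18).

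In the authors' deposited table, the mark for genes that pass was set for 0, 2, 5 and 4 members in RB 1 h, RB 2 h, RB 3 h and RBH vs water and for 3 in RBH vs RB 2 h. For RSL2 in RBH vs water, the authors' deposited table gives a log2 fold change of 4.88 for water over RBH and an adjusted p of 0.00933, with no mark.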

How the data were processed

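Root RNA of 15 libraries was counted by MARS-seq, a 3′ method. Per the submitters' processing notes, the tools were bcl2fastq, cutadapt, STAR 2.4.2a, HTSeq and DESeq2; the sources used here do not give the genome build, strand setting or handling of molecular identifiers. The authors deposited whole-number read counts per gene and library, along with their log2 fold changes, adjusted p-values and a yes or no mark. Another 30 per-library columns were left unused. TAIR10.1, read only for names and overlaps, held 14356 of the loci and lacked 35.

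The counts went into edgeR 4.0.16 (R 4.3.3). Its filterByExpr kept 9891 genes and dropped 4500, TMM factors scaled the libraries, and 1 robust quasi-likelihood fit held all 5 groups and 15 libraries. CPM use TMM-scaled totals, with a prior count of 2 on the log2 scale. SE is the size of the log2 fold change divided by the root of F, and intervals are 95% by the t distribution of the fit. The biological coefficient of variation was 20.6%. At these depths 3 counts in a library were 0.524 to 3.55 CPM; such floors cover counting error only. Replicates are named as biological in the labels, and within groups the chi-square per degree of freedom between replicates was 3.00 to 11.1, more than counting alone gives. The scripts were tested on simulated data.

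The members, lists and tests were chosen with earlier results of these data known. All members are named; from each other root hair list, up to 4 genes were named by lowest p in RB 2 h vs water, with up to 2 called higher there. CPC, RHD3, FER, OXI1, RHS2, RHS4 and the endodermis markers CASP1 and PER64 fall outside that rule and were named after their values were seen. Without the strand setting, reads of genes that overlap on opposite strands cannot be told apart. One withheld item is not reported here. Letters a, b and c were not used to pair libraries in the main fit: of 21 same-letter pairs, 3 correlated over 0.1 (-0.23 to 0.27). Pairs of different letters were not computed, so this check cannot show whether the letters pair libraries across groups. Alternatives were other scalings, filters, DESeq2, 2-group fits, a replicate block, a 2-fold rule and leaving out libraries.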

Additional observations from a re-analysis of the deposited data

Results flagged for a closer look

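The effect against water differed between groups, by the test of the difference itself (edgeR, adjusted over all genes), for 3 members between RBH and RB 2 h: LRL1 (log2 fold change -1.35, adjusted p = 5.18e-06), LRL3 (-3.18, adjusted p = 3.22e-05) and HA7 (-2.18, adjusted p = 8.02e-04), each lower in 3 of 3 RBH libraries than in any RB 2 h library. LRL1 thus differed from water in RB 2 h (1.53) and not in RBH (0.18), while LRL3 and HA7 were further below water in RBH. GL2 also lay lower in each RBH library than in any RB 2 h library, without a call (-0.63, edgeR adjusted p = 0.248). Of all genes, 16.8% were called in RBH vs RB 2 h, and the share with ranges apart was not computed. The labels of these groups also differ in the dye, MRB against RB. Between 2 h and 1 h of RB, the effect differed for LRL1 (1.04, adjusted p = 1.21e-04) and LRL3 (-1.41, adjusted p = 0.00397), where 9.79% of all genes were called.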

How the results depend on the processing

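The 58 member results were recomputed under up to 15 alternatives, in 825 values: 792 kept their direction and side of the threshold, 6 lost a call, 11 gained one and 16 changed sign. The calls of LRL1 and LRL3 in RB 2 h and RB 3 h, of LRL3 and HA7 in RBH and of HA7 in RB 3 h vs water held in all 15, as did those of RBH vs RB 2 h and RB 2 h vs RB 1 h. COBL9 was not tested where a mean count of at least 10 was asked. Plain library totals shifted the median of all genes by 0.19, 0.15 and 0.17 (log2) in RB 1 h, RB 2 h and RB 3 h vs water and by -0.21 in RBH vs RB 2 h; with them 1 member was called in RB 1 h vs water. The cause was not tested for the following. Members called were 4 in RB 2 h vs water without RB 1 h b and RB 2 h a together, 2 to 4 there and in RBH vs water when leaving out each library, and 1 in RB 3 h vs RB 2 h with DESeq2. All genes called were 1104 in RB 1 h vs water without both libraries and 296 to 766 leaving out each. With at least 2-fold asked they were 1606, 2136, 986 and 617 in RB 2 h and RB 3 h vs water, RBH vs RB 2 h and RB 2 h vs RB 1 h. With only the groups compared they were 1051 in RBH vs RB 2 h and 576 in RB 2 h vs RB 1 h, and leaving out each library 1077 to 1951 and 541 to 942. In RB 3 h vs RB 2 h they were 42 with no filter, 99 with DESeq2, 9 with the replicate block, 37 with library totals and 0 to 46 leaving out each. Sign changes, none of a called value, were SCN1 in RBH vs RB 2 h (0.0045 with DESeq2, 0.0049 with the replicate block, -0.26 to 0.41 leaving out each library), RHD6 in RB 2 h vs RB 1 h (0.073 without both libraries, -0.33 to 0.19) and CSLD3 in RB 3 h vs RB 2 h (-0.16 without both, -0.16 to 0.18). Leaving out each library, SCN1 against water ran from -0.29 to 0.40 (RB 2 h) and from -0.17 to 0.34 (RBH), RHD6 from -0.48 to 0.0060 and COBL9 from -0.49 to 0.52 in RB 1 h vs water. The replicate block changed no member call. RHD6, RSL2 and COBL9 had at most 62 counts a group, and how far depth limited their calls was not tested.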
